A study of Homo sapiens with 6 samples.

Results

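The protein-coding genes of human chromosome 19 whose symbol is ZNF followed by a number and at most 1 letter were taken from the deposited gene table. This gave 246 genes among 58735 in the table. Most of them encode proteins with arrays of C2H2 zinc fingers, small folds that read DNA bases. RNA was sequenced from NCI-N87, an established human gastric cancer line with ERBB2 amplification. In 3 libraries the cells had received the plasmid PLVX-IRES-Puro carrying EGLN3, a prolyl hydroxylase of hypoxia signalling, and in 3 control libraries the same plasmid was empty. Exposure to the plasmid lasted 1 day, or 5 days by the label of EGLN3 replicate 3, and puromycin selection followed for 7 days in every library. Values per library are given in the order of replicates 1, 2 and 3. All libraries are of 1 line, and the labels do not say whether replicates were separate cultures. The p-values therefore set the difference between groups against the scatter of these libraries only, and that scatter may be technical.

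Most zinc finger genes of this chromosome arose by tandem duplication and stand in clusters. The largest group carries a KRAB box near the start of the protein, which recruits the corepressor TRIM28 and through it the histone methyltransferase SETDB1 and heterochromatin proteins. Many such proteins bind transposable elements, and several of their genes have been described with methylated promoters in tumours. Members without a KRAB box include widely expressed regulators.

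Library totals ran from 15157265 to 16767383 gene counts. EGLN3 itself had 10, 11 and 9 counts in the control libraries against 7298, 27674 and 27494 in those with the EGLN3 plasmid, so each library matched its label. Of 11 epithelial and gastric markers, 7 had more than 1000 counts over the 6 libraries, among them KRT8, EPCAM and ERBB2 at 2620, 163 and 917 FPKM (counts scaled by gene length and by library, as deposited). The gastric products TFF1, TFF2 and CLDN18 were at 0.364, 0.187 and 0.01 FPKM and the mucin MUC1 at 0.723 FPKM. Of 11 markers of immune, fibroblast and endothelial cells, 9 had at most 18 counts over the 6 libraries, and the others were COL1A1 at 0.45 FPKM and VWF at 0.0734 FPKM.

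A KRAB A box was found in the coding sequence of 211 members and was not found in 35. The search scored each GENCODE coding isoform against the consensus of a 40-residue window. The best match reached 42.5% or more in the first class and 32.5% or less in the second, with ZNF446 just above that gap and ZNF473 just below it. Members with the box had a median of 13 fingers and those without it a median of 9. The finger count ran from 0 in ZNF738 to 36 in ZNF208. Transcripts of the members with a KRAB box had a median GC content of 41.8%, against 59.6% in those without.

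Over the 6 libraries together, 47 members had 0 counts and 77 (31.3%) had at most 18 counts, that is 3 per library. These 77 are called silent here, at this depth. In bulk RNA, fewer cells that express a gene and less RNA per cell cannot be told apart. Another 11 had more than 18 and at most 100 counts, and 158 had more than 100. A sum of 0 allows a level of up to 0.0309 CPM (counts scaled to library size), for counting error only. The filter on low counts kept 163 members (66.3%) for testing. Among the members with a KRAB box 33.2% were at or below 18 counts, and among those without it 20%. The same share was 15.2% in the 263 protein-coding ZNF genes of other chromosomes and 32% in the 1226 other protein-coding genes of chromosome 19. On other chromosomes it was 18.3% in the 126 ZNF genes with a KRAB box and 12.4% in the 137 without it. These shares are descriptions and their differences were not tested.

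The highest levels per length belonged to members without a KRAB box. Of the 12 members with the highest mean FPKM, 11 lacked the box, and so did all 7 members at 10 FPKM or above. ZNF787 was at 19.8 ± 5.91 FPKM (SD over the 6 libraries) and ZNF146, a protein made almost only of fingers and amplified in some carcinomas, at 19.7 ± 3.06 FPKM. ZNF121, ZNF524, ZNF581, ZNF865 and ZNF579 followed at 13.8, 13.3, 12.6, 10.9 and 10.3 FPKM. ZNF787 and ZNF146 differed by less than their SD, as did each neighbour from ZNF121 down to ZNF579, while ZNF121 lay more than 1 SD below ZNF146. The highest member with a KRAB box was ZNF317, at 8.75 ± 1.12 FPKM. The median over all members was 0.632 FPKM with the box and 3.65 FPKM without it.

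**Figure D1:**
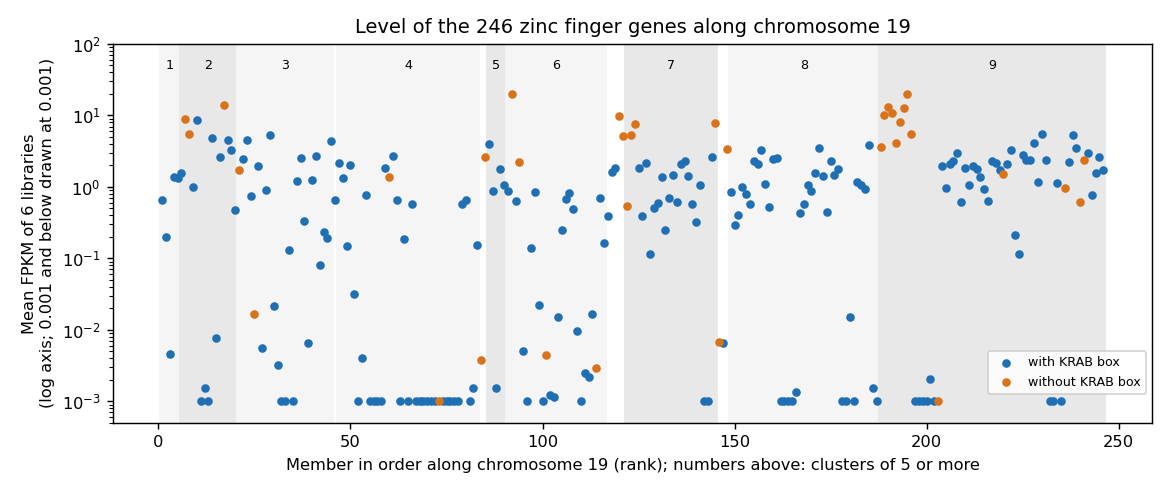
Mean FPKM of the 6 libraries (log axis) for the 246 members in their order along chromosome 19, with values of 0.001 and below drawn at 0.001. Shaded bands are the 9 clusters of at least 5 members, and colours give the presence of a KRAB box. The longest run of silent members is in cluster 4. Other silent members stand in shorter runs or singly among expressed ones, and all 7 members above 10 FPKM lack the box.

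A new cluster was started where consecutive gene starts lay more than 1 Mb apart, which gave 9 clusters of at least 5 members. Numbered as in the plot of levels along the chromosome, they start at 2.8, 7.1, 11.5, 19.7, 34.7, 36.2, 43.5, 51.6 and 55.5 Mb of GRCh38. The share of silent members differed widely between them. In cluster 4, from 19668796 to 24129961, 23 of 37 members (62.2%) had at most 18 counts and the median level was 0 FPKM. In cluster 6, from 36182060 to 37817300, it was 14 of 26 members (53.8%), with a median of 0.0194 FPKM. In cluster 7, from 43525497 to 45076588, 2 of 24 members (8.33%) were so low, ZNF285 and ZNF229, and the median was 0.872 FPKM. Cluster 9, from 55476332 to 58481230, had 10 silent members of 59 (16.9%) and a median of 1.94 FPKM.

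Each cluster also held expressed members. The highest were ZNF57 in cluster 1 at 1.36 FPKM, ZNF121 in cluster 2, ZNF700 in cluster 3 at 5.38 FPKM and ZNF431 in cluster 4 at 2.72 FPKM. ZNF302 led cluster 5 at 4 FPKM, ZNF146 led cluster 6, ZNF296 led cluster 7 at 7.79 FPKM, ZNF761 led cluster 8 at 3.88 FPKM and ZNF787 led cluster 9. ZNF146 thus stood in a cluster where 14 of 26 members were silent.

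Of the 77 silent members, 36 stood in 5 runs of at least 5 consecutive members, and 11, such as ZNF556 in cluster 1 and ZNF599 in cluster 5, had no silent neighbour. Whether runs of this length exceed chance was not tested. The longest run had 12 consecutive members in cluster 4, from ZNF43 to ZNF724 (chromosome 19, 21804949 to 23250390), and all 12 had 0 counts in each library. It ended next to ZNF91, with 581 counts over the 6 libraries, and ZNF100 on its other side had 369. In cluster 9, the 7 members from ZNF582 to ZNF835 (56375846 to 56671783) shared 2 counts in all, both of ZNF470. The neighbours outside that run were ZNF444 with 3837 counts and ZNF264 with 2390. Cluster 6 held 2 runs of 6 members, ZNF850 to ZNF420 with 27 counts in all and ZNF569 to ZNF781 with 20. Cluster 8 held 1 run of 5, ZNF610 to ZNF578, with 1 count between ZNF480 at 1205 counts and ZNF808 at 211.

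Some members have been described with promoter methylation in cancer, among them ZNF471, ZNF582, ZNF671 and ZNF677. ZNF582 and ZNF471, both in the run of cluster 9, had 0 counts in each of the 6 libraries. ZNF677 and the imprinted gene ZNF331, at the end of cluster 8, were also at 0 in each library. ZNF671 had 9, 2 and 6 counts in the control libraries against 2, 11 and 11 in the EGLN3 libraries. ZNF93, a repressor of L1 elements, had 3, 3 and 1 counts in the control libraries against 5, 0 and 5 in the others. DNA methylation was not analysed here.

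Similar copies and shared exons could lower the count of a member, and how reads with several matches were counted was not given in the sources used here. Of the 50-base words of a silent member's longest transcript, a median of 2.9% also occurred in a transcript of another gene, against 2.6% in the members above 18 counts. The share exceeded 50% in 7 of the 169 members above 18 counts and in 5 of the 77 silent members, which were ZNF98, ZNF724, ZNF763, ZNF625 and ZNF177. In the run of cluster 9 the highest share was 0.5%, and in the run from ZNF43 to ZNF724 the median was 10.1%. The read length is not given, so 50 bases is a choice, and the part of shared sequence in the silent set was not tested further.

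Upstream sequence was matched for 215 of the 246 members in a RefSeq promoter table (GRCh38.p14). For the 35 members with several starts, the first on the gene's strand was used. The CG dinucleotide, the site of methylation in vertebrate DNA, occurred a median of 13 times in the 250 bases upstream of silent members (quartiles 10 and 18) and 16 times upstream of the others (quartiles 12 and 21). With the last start in place of the first, these medians were again 13 and 16. The median over all 27305 RefSeq promoters was 10. Within cluster 4 the median was 8 in silent and 8 in expressed members. Outside it, the medians were 16 and 17. These ranges overlapped, and the difference was not tested. The members shown are 5, each 5′ to 3′ on the strand of the gene with CG in capitals: ZNF787 with the highest level, ZNF582 and ZNF264 as a silent and an expressed member of cluster 9, and ZNF208 and ZNF91 as a silent and an expressed member of cluster 4.
ZNF787, chr19:56121296-56121545, minus strand, 19.8 FPKM: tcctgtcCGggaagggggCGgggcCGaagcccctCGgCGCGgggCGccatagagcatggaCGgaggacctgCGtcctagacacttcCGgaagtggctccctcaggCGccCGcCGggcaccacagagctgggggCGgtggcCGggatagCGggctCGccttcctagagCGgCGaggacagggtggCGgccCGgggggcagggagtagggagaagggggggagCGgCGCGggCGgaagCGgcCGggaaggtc
ZNF582, chr19:56393535-56393784, minus strand, 0 counts: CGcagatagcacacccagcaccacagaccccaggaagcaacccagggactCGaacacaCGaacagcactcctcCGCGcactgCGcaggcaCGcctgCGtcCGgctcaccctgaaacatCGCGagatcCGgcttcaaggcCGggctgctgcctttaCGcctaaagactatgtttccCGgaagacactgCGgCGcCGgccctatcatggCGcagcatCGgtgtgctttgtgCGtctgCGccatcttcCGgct
ZNF264, chr19:57191250-57191499, plus strand, 1.94 FPKM: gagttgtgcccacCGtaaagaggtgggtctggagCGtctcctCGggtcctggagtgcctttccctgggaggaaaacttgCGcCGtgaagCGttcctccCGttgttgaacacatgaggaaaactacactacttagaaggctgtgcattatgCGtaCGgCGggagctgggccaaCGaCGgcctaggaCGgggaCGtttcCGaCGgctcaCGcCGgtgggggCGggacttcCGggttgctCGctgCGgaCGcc
ZNF208, chr19:22010944-22011193, minus strand, 0 counts: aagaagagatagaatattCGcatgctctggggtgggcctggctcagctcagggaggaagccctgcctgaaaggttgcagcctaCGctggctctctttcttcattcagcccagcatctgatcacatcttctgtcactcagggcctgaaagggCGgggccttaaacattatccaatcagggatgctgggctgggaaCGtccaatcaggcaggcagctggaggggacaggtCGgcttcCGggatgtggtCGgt
ZNF91, chr19:23395472-23395721, minus strand, 0.568 FPKM: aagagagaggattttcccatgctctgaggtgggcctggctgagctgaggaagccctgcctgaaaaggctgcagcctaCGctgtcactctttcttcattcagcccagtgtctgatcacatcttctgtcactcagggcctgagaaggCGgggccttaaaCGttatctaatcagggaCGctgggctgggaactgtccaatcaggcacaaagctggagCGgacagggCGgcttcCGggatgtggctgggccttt
ZNF582 and ZNF264 each held 23 CG in this window, and ZNF208 and ZNF91 each held 7. In a global alignment ZNF208 and ZNF91 were identical in 86.4% of columns, while the other pairs of these genes lay between 49.5% and 53.8%. ZNF208 had 0 counts and ZNF91 had 581. ZNF208 was picked after its count was seen, and the part of upstream sequence in these counts was not tested.

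The 6 libraries differed along a main axis that the plasmid does not define. It was taken as the first principal component of log2 CPM over the tested genes that are not members, and it held 70% of their variance. From low to high, EGLN3 replicate 1 scored -59.2, control replicate 3 -34.3, control replicate 2 -11.4, EGLN3 replicate 2 23.2, control replicate 1 36.1 and EGLN3 replicate 3 45.6. Each group thus had libraries at both ends.

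Most members with a KRAB box and most members without it went in opposite directions along this axis. For each gene a slope was fitted and expressed as the log2 change from the lowest to the highest library. Over all 15726 tested genes 50% had a slope above 0, with a median of 0.00. Of 135 tested members with the box, 110 (81.5%) had a slope above 0, with a median of 0.41 and quartiles of 0.07 and 0.66. Of 28 tested members without it, 9 (32.1%) did, with a median of -0.81. The other 754 tested protein-coding genes of chromosome 19 had 18.7% above 0 and a median of -0.57. Their median GC content was 60.2%, against 42.5% in the tested members with the box. The 44 of them with a GC content under 50%, at a median GC content of 47.8%, had 47.7% above 0 and a median slope of -0.07. The 100 tested KRAB genes of other chromosomes had 75% above 0 and a median of 0.46. The 114 tested ZNF genes of other chromosomes without the box had 70.2% above 0 and a median of 0.35, so there both classes mostly rose.

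The median deviation of the KRAB members from their own mean was 0.06, -0.11 and -0.18 on the log2 scale in the control libraries and -0.18, 0.15 and 0.26 in the EGLN3 libraries. EGLN3 replicate 1 was as low as the lowest control, and the groups overlapped. EGLN3 replicate 2 stood above control replicate 1, although it scores lower on the axis. Members without the box stood at -0.14, 0.10 and 0.26 in the control libraries against 0.32, -0.18 and -0.40 in the others, with the opposite sign to the KRAB members in each library. Over all tested genes these medians lay between 0.00 and 0.01.

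**Figure D2:**
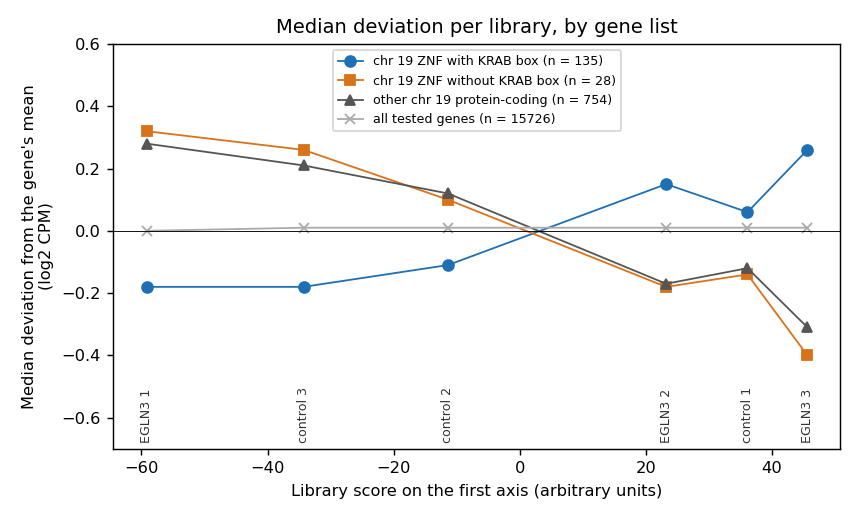
Median deviation from each gene's mean over the 6 libraries (log2 CPM) against the library's score on the first axis, for 4 gene lists; lines join libraries for reading only. KRAB members lie at -0.18 in EGLN3 replicate 1 and at 0.26 in EGLN3 replicate 3, with control replicate 1 at 0.06, while members without the box and the other protein-coding genes of chromosome 19 lie above 0 in the 3 lowest-scoring libraries and below 0 in the others.

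The steepest members changed several-fold between libraries of 1 group. ZNF460, a KRAB member, had 13, 4.85 and 1.76 CPM in the control libraries against 1.65, 7.11 and 15.9 CPM in the EGLN3 libraries, with a slope of 3.32. The control libraries alone ran from 1.76 to 13 CPM, and the groups overlapped. ZNF805 had 3.32, 1.72 and 2.07 CPM in the control libraries against 0.594, 2.90 and 4.31 CPM in the EGLN3 libraries, with a slope of 2.15. ZNF155 had 2.33, 1.6 and 1 CPM in the control libraries against 0.462, 2.67 and 2.56 CPM in the EGLN3 libraries, with a slope of 2.12. All 3 were lowest in EGLN3 replicate 1. Of the exon bases of ZNF155, 41.4% are also annotated, on the opposite strand, to AC006213.1, and without known strand use the reads of both cannot be told apart.

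At the other end stood members without a KRAB box. ZNF358 had 12.8, 18.6 and 24 CPM in the control libraries against 33.4, 13 and 9.93 CPM in the EGLN3 libraries, with a slope of -1.61. ZNF428 had 9.66, 13.1 and 18.7 CPM in the control libraries against 22.6, 11.4 and 7.31 CPM in the EGLN3 libraries, with a slope of -1.46. ZNF414 had 9.43, 17.7 and 20 CPM in the control libraries against 22.8, 11.6 and 9.05 CPM in the EGLN3 libraries, with a slope of -1.42. All 3 were highest in EGLN3 replicate 1 and lowest in EGLN3 replicate 3. Their transcripts had a GC content of 69.1%, 61.3% and 62.6%. Exon bases shared with other annotated genes made up 34.4% of ZNF358 and 27.6% of ZNF428, the latter with SRRM5 on the opposite strand.

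In members without the box and over all tested genes, GC content moved with the direction on the axis. Of 8 tested members without a KRAB box and with a transcript GC content under 50%, 8 had a slope above 0, among them ZNF146 at 0.43 and ZNF121 at 0.25. Of the 20 with 50% or more, 1 did, ZNF526. Among members with the box, 102 of 127 under 50% and 8 of 8 at 50% or over had a slope above 0. Over all tested genes 62.8% of those under 50% had a slope above 0, against 35.2% of the others. The part of GC content in the slopes of the members was not tested.

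**Figure D3:**
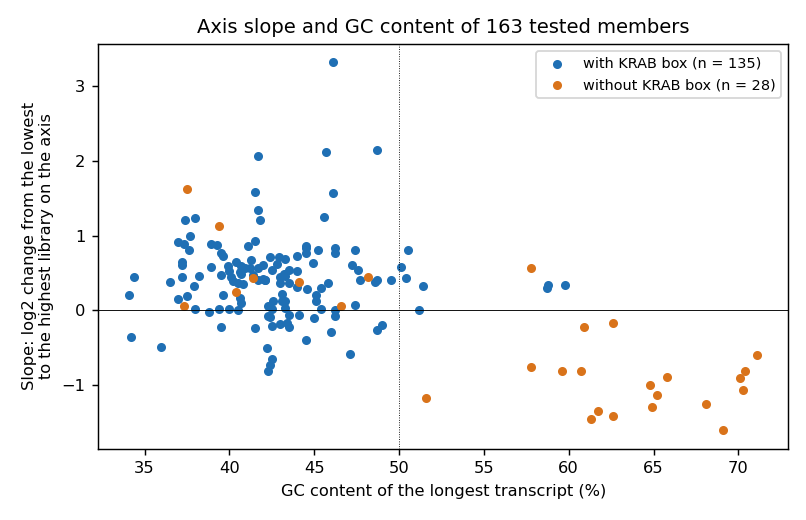
Slope on the library axis (log2 change from the lowest to the highest library) against the GC content of the longest GENCODE transcript for the 163 tested members, coloured by KRAB box. Nearly all members without the box lie below 0 when their GC content is over 50% and above 0 when it is lower.

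Against the empty plasmid, no member passed with EGLN3. By edgeR's quasi-likelihood test 0 of 163 tested members were called at an adjusted threshold of 0.05, where 1 of 15726 genes (0.00636%), EGLN3 itself, was. DESeq2 also called 0 members. At an unadjusted p under 0.05 there were 2 members higher with EGLN3 (edgeR) and 0 lower, against 0.458% and 0.649% of all tested genes. At the same threshold DESeq2 had 1 member, where 1.04% of all tested genes passed in either direction. The log2 fold change was above 0 in 128 of 163 members (78.5%), where 52.2% of all tested genes were above 0. The median was 0.14 over the members and 0.01 over all tested genes.

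The median log2 fold change was 0.17 over members with a KRAB box, with 114 of 135 above 0, and 0.00 over those without it, with 14 of 28 above 0. GC content moved with this difference, and its part was not tested. Members without the box and with a GC content under 50% had a median of 0.14, with 8 of 8 above 0, and members with the box at 50% or over had one of 0.04, with 4 of 8 above 0. KRAB genes of other chromosomes had a median of 0.14, with 77 of 100 above 0. ZNF genes of other chromosomes without the box had one of 0.04, with 66 of 114 above 0. The other protein-coding genes of chromosome 19 had one of -0.11, with 162 of 754 above 0. Those of them with a GC content under 50% had one of 0.04, with 27 of 44 above 0. Over all tested genes with a transcript GC content under 50%, 71.1% were above 0 with a median of 0.08. The median over the members depended on single libraries. It was 0.07 without EGLN3 replicate 3 and 0.26 without EGLN3 replicate 1, the libraries at the ends of the axis. EGLN3 replicate 3 is also the library labelled with 5 days of plasmid, which cannot be told apart from its place on the axis. EGLN3 itself had 481 CPM in EGLN3 replicate 1, against 1640 and 1720 CPM in EGLN3 replicates 2 and 3. A fit added after the data had been seen removed the dependence on GC content and on gene length within each library. There the median log2 fold change was 0.10 over members and 0.104 over KRAB members. With 1 surrogate variable as well, the median over KRAB members was 0.069. Without EGLN3 replicate 1, 19 members were higher and 7 lower at an unadjusted p under 0.05 (edgeR), where 8.74% of all genes passed in either direction, and 0 were called.

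**Figure D4:**
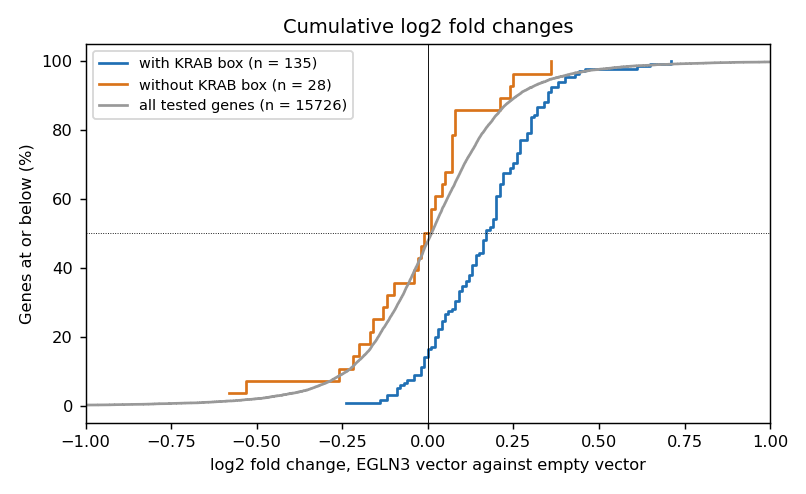
Cumulative share of genes (%) by log2 fold change of EGLN3 vector against empty vector, for members with and without a KRAB box and for all tested genes. The curve of the KRAB members crosses 50% at 0.17, right of the other curves, which cross near 0.00.

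By cluster, the median log2 fold change ran from -0.05 to 0.26. Cluster 4, where most members are silent, had a median of 0.26 over its 14 tested members, with 13 above 0. Cluster 8 had one of 0.19 over 28, with 26 above 0. Cluster 9, which holds 14 of the 35 members without a KRAB box, had one of 0.06 over 48, with 31 above 0. Clusters 2, 3, 5, 6 and 7 lay at 0.11, 0.09, 0.19, 0.21 and 0.17, and cluster 1 at -0.05 over 4 members. These medians depended on single libraries. Without EGLN3 replicate 3, that of cluster 6 was 0.074, that of cluster 8 was 0.072 and that of cluster 9 was -0.015, and without control replicate 3 that of cluster 5 was 0.041 and that of cluster 1 was 0.094.

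The groups did not overlap in CPM for 11 of the 163 tested members, which is 6.75% where 6.26% of all tested genes did not overlap. All 11 were higher with EGLN3, against 2.64% of all tested genes higher and 3.62% lower. Of the 8441 tested genes with a transcript GC content under 50%, 338 were higher without overlap and 102 lower. ZNF555 (ENSG00000186300, chromosome 19, 2841435 to 2860484, plus strand) had 1.40, 1.34 and 1.13 CPM in the control libraries against 2.51, 1.78 and 2.06 CPM in the EGLN3 libraries (log2 fold change 0.71, SE 0.26; edgeR unadjusted p = 0.0294, adjusted p = 1). It rests on 18 to 38 counts per library. ZNF527 (ENSG00000189164, 37371061 to 37393066, plus strand) had 2.79, 2.49 and 2.70 CPM in the control libraries against 3.89, 3.38 and 3.75 CPM in the EGLN3 libraries (log2 fold change 0.46, SE 0.19; edgeR unadjusted p = 0.0425, adjusted p = 1). ZNF383 had 6.05, 5.68 and 6.40 CPM in the control libraries against 9.23, 7.29 and 7.37 CPM in the EGLN3 libraries (log2 fold change 0.40, SE 0.17). These 3 KRAB genes had slopes near 0 on the library axis, at -0.06, 0.01 and -0.22. ZNF226, with 13.2, 15.5 and 14.6 CPM in the control libraries against 16.2, 18 and 18.6 CPM in the EGLN3 libraries, had a log2 fold change of 0.29 (SE 0.14). None of the 4 passed the adjusted threshold.

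**Figure D5:**
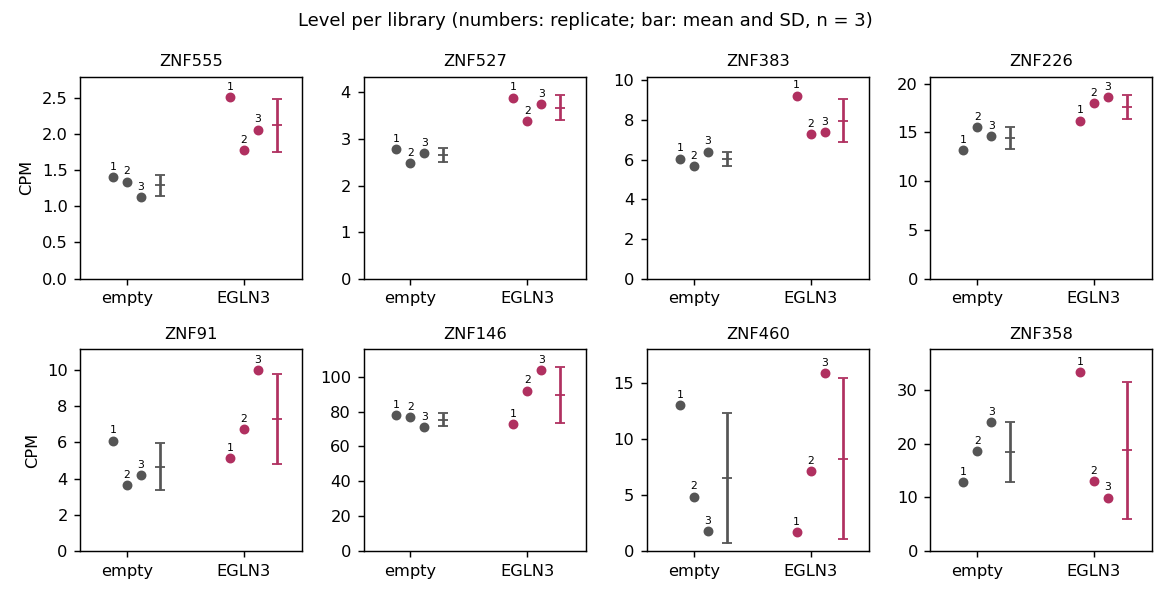
CPM of 8 members in the 3 libraries with the empty plasmid and the 3 with EGLN3; numbers at the points are replicates, and the bar beside them is the mean with its SD (n = 3). The groups do not overlap for ZNF555, ZNF527, ZNF383 and ZNF226, and for ZNF460 and ZNF358 the spread within a group exceeds the difference between groups.

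None of the members with a known role passed. ZNF91 (ENSG00000167232, 23304991 to 23395560, minus strand), a repressor of SVA retrotransposons, had 6.11, 3.64 and 4.21 CPM in the control libraries against 5.14, 6.76 and 9.99 CPM in the EGLN3 libraries. Its groups overlapped, with a log2 fold change of 0.65 (SE 0.31; edgeR unadjusted p = 0.0802, adjusted p = 1). Without EGLN3 replicate 3 it was 0.35. ZNF146 had 78, 76.8 and 71.2 CPM in the control libraries against 72.6, 92 and 104 CPM in the EGLN3 libraries, with a log2 fold change of 0.25 (SE 0.16), or 0.13 without EGLN3 replicate 3. ZNF224, described as a repressor of the aldolase A gene, had 9.47 ± 1.65 CPM in the control libraries against 12 ± 1.89 CPM in the EGLN3 libraries (mean ± SD, n = 3 libraries), with a log2 fold change of 0.34 (SE 0.20), and 40.5% of its exon bases are shared with AC021092.1 on the opposite strand. The log2 fold change of ZNF304 was 0.17 (SE 0.17) and that of ZNF444, a SCAN-domain gene, was -0.03 (SE 0.24).

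ZNF274, which marks the 3′ ends of zinc finger genes for SETDB1, had a level of 18.8 ± 0.597 CPM in the control libraries against 18.7 ± 3.45 CPM in the EGLN3 libraries (mean ± SD, n = 3 libraries). That is a log2 fold change of 0.00 (SE 0.17). ZNF350, a partner of BRCA1, had 3.77 ± 0.584 CPM in the control libraries against 3.60 ± 0.533 CPM in the EGLN3 libraries, with a log2 fold change of -0.06 (SE 0.22). The highest members of the clusters did not pass either: ZNF787 had a log2 fold change of -0.17 (SE 0.32), ZNF121 0.21 (SE 0.13), ZNF431 0.25 (SE 0.22), ZNF302 0.16 (SE 0.19), ZNF761 0.16 (SE 0.19), ZNF700 -0.04 (SE 0.30), ZNF296 0.08 (SE 0.38) and ZNF57 -0.02 (SE 0.21).

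When 1 surrogate variable, an estimate of unmodelled library differences, was added to the model, 2 members passed, where 4.53% of all tested genes did. ZNF784, a member without a KRAB box, had 7.39, 10.7 and 12.2 CPM in the control libraries against 9.23, 6.40 and 4.68 CPM in the EGLN3 libraries, so its groups overlapped. In that fit its log2 fold change was -0.53 (SE 0.13; edgeR adjusted p = 0.0191), and that of ZNF146 was 0.21 (SE 0.06; edgeR adjusted p = 0.0427). With the dependence on GC content and length also removed, 0 members passed, where 0.929% of all tested genes did, and the adjusted p was 0.118 for ZNF784 and 0.188 for ZNF146 (edgeR). The variable was estimated from these same libraries and then treated as known, so these p-values may be too small.

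A list of 33 genes of the KRAB pathway and of related heterochromatin factors was also examined. It holds corepressors and methyltransferases, but also the histone demethylase genes KDM4A, KDM4B and KDM4C and the KRAB zinc finger gene ZFP57. Of the 33 listed genes 33 were tested, 0 passed (edgeR) and 0 had an unadjusted p under 0.05, with 18 above 0, 15 below 0 and a median log2 fold change of 0.03. TRIM28, which lies on chromosome 19 next to cluster 9 at 58544091, had 677 ± 84.6 CPM in the control libraries against 605 ± 135 CPM in the EGLN3 libraries (mean ± SD, n = 3 libraries), with a log2 fold change of -0.16 (SE 0.20). SETDB1 had 32.6 ± 7.63 CPM in the control libraries against 32.1 ± 11.4 CPM in the EGLN3 libraries. The smallest unadjusted p-values belonged to the methyltransferase gene EHMT2 at -0.20 (SE 0.13), the methylation cofactor UHRF1 at -0.28 (SE 0.20), TRIM24 at 0.30 (SE 0.22) and the demethylase gene KDM4B at -0.19 (SE 0.14). Along the library axis TRIM28 had a slope of -0.58 and SETDB1 one of 1.04, and 24 of the 33 were above 0.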

How the data were processed

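RNA of 6 libraries was analysed, grouped by title. The deposited gene counts are whole numbers and unscaled. Per the submitters' processing notes the build is hg38 and the tools named, without their roles, are DESeq2 1.20.0, featureCounts 1.5.0-p3 and HISAT2 2.0.5. Annotation, strand use and the handling of reads with several matches were not given in the sources used here. The deposited FPKM are counts over gene length, scaled with 1 factor for each library.

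Counts were filtered with filterByExpr, scaled by TMM (factors 0.919 to 1.06) and tested over all genes with edgeR 4.0.16 (quasi-likelihood, robust, group as the single term) in R 4.3.3. Adjustment followed Benjamini and Hochberg, with a threshold of 0.05. The SE is the absolute log2 fold change over the square root of F. CPM carry the TMM scaling, and log2 CPM used a prior count of 2. The test was tried on simulated counts that had no library axis, so that trial does not show its power in these libraries.

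KRAB boxes and fingers were found in translated GENCODE 29 coding sequences, in place of the protein table planned. GC content is that of the longest GENCODE transcript. Alternatives were DESeq2 1.42.0, RLE and upper-quartile scaling, no or a stricter filter, the replicate number as a block, limma 3.58.1 on log2(FPKM + 1), 1 surrogate variable (sva 3.50.0) with and without GC and length trends, cluster gaps of 0.5 and 2 Mb, and leaving out each library. GC and length trends without a surrogate variable were added after the data had been seen.

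The members and lists were chosen with earlier results of these data known. The rule for named genes took members that passed, the largest differences without overlap at 1 CPM or more, the smallest p-values, the highest member of each cluster, the steepest slopes and members with a known role. Silent members, the other high members, ZNF264, ZNF526 and ZNF784 were named after their values were seen. Chi-square per degree of freedom between replicates was 5.578 to 66.62, so no pair of libraries agreed within sampling noise.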

Additional observations from a re-analysis of the deposited data

How the results depend on the processing

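No member was called in the main test or in the alternatives run, except with 1 surrogate variable, where 2 were. With 1 library left out in turn, 0 were called, and the median log2 fold change ran from 0.073 to 0.258 over members, from 0.073 to 0.298 over KRAB members and from -0.4 to 0.082 over those without the box. The percentage with a slope above 0 ran from 65.0 to 74.2 over members and from 72.6 to 83.0 over KRAB members, lowest without EGLN3 replicate 3. Same-numbered libraries did not deviate together from their group means (correlations -0.793, -0.176 and -0.674). Most of the variance lies on the library axis, so these values cannot show a smaller effect shared by replicate number. The replicate block called 0 members and 0 genes, with a median of 0.126 over members. No named member with a changed sign was called in any fit. With the block, the log2 fold change was -0.01 for ZNF296, -0.15 for ZNF358 and -0.06 for ZNF805. With 1 surrogate variable it was -0.08 for ZNF155, 0.02 for ZNF428, 0.00 for ZNF444, -0.16 for ZNF460 and -0.2 for ZNF805. With GC and length trends also out it was -0.04 for ZNF155, 0.01 for ZNF274, 0.00 for ZNF414, 0.08 for ZNF428, 0.07 for ZNF444, -0.05 for ZNF460 and -0.12 for ZNF805. With the trends alone it was 0.07 for ZNF428 and 0.06 for ZNF444, and limma on FPKM gave -0.1 for ZNF358. RLE scaling and DESeq2 gave 0.00 for ZNF274 and ZNF428. Leaving out 1 library moved ZNF155 from -0.12 to 0.68, ZNF274 from -0.14 to 0.14, ZNF296 from -0.4 to 0.32, ZNF302 from -0.03 to 0.27, ZNF350 from -0.17 to 0.08, ZNF358 from -0.67 to 0.33, ZNF414 from -0.59 to 0.13, ZNF428 from -0.54 to 0.3, ZNF444 from -0.28 to 0.11, ZNF460 from -0.58 to 1.31, ZNF57 from -0.14 to 0.1, ZNF700 from -0.27 to 0.25, ZNF787 from -0.55 to 0.05 and ZNF805 from -0.43 to 0.61. With the same sign throughout, ZNF91 ran from 0.35 to 0.89, ZNF146 from 0.13 to 0.4, ZNF431 from 0.11 to 0.41 and ZNF761 from 0.06 to 0.35. Cluster medians ran from -0.08 to 0.094 in cluster 1, 0.091 to 0.245 in cluster 2, 0.066 to 0.161 in cluster 3, 0.184 to 0.416 in cluster 4, 0.041 to 0.302 in cluster 5, 0.074 to 0.282 in cluster 6, 0.101 to 0.258 in cluster 7, 0.072 to 0.355 in cluster 8 and -0.015 to 0.161 in cluster 9. With cluster gaps of 0.5 and 2 Mb there were 10 and 6 clusters of at least 5 members, in place of 9. The highest median level of a cluster was then 3.86 and 1.38 FPKM, against 2.62 FPKM with a gap of 1 Mb. The highest share of silent members in a cluster stayed at 62.2%. The cause of these changes was not tested.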
